A study of Homo sapiens with 22 samples.

Results

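The respiratory chain genes described here are 76 of the 35237 gene rows of a count table from neuroblastoma cells, chosen by their symbols. They comprise 13 genes of the mitochondrial genome and 63 nuclear genes for subunits of complexes I to IV. By role, the nuclear genes fall into 7 core and 29 accessory subunits of complex I, 4 of complex II, 8 of complex III and 15 of complex IV. The last group includes NDUFA4, whose symbol names complex I but whose protein belongs to cytochrome c oxidase. The symbol rule leaves out a few subunits, among them COX4I1, CYC1 and NDUFAB1, and these are described separately.

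RNA was measured in 22 libraries of 2 established human neuroblastoma cell lines, SK-N-AS and GIMEN, both labelled as MES (mesenchymal) lines. Untreated SK-N-AS cells (n = 4) grew in DMEM with 10% FBS. In the first stage, S1D4, SK-N-AS cells received 5 µM PP121 for 4 days while serum was lowered to 1% (n = 4). Cells of that stage were then moved to Neurobasal medium with B27, 5 µM PP121 and 100 nM bufalin, where they stayed 4 days in the group S2D4 (n = 4) and 30 days in the group S2D30 (n = 4). Untreated GIMEN cells (n = 3) grew in RPMI with 10% FBS, and the treated GIMEN cells, D30, spent 30 days in RPMI with 1% FBS, 2.5 µM PP121 and 10 nM bufalin (n = 3). PP121 is a kinase inhibitor with tyrosine kinases and PI3K family kinases among its targets, and bufalin is a cardiac glycoside, an inhibitor of the sodium pump. Drug, serum and, in SK-N-AS, medium changed together, so their contributions cannot be told apart. The labels do not say whether the replicates were separate cultures, and p-values measure only the spread between these libraries, which may be technical.

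The respiratory chain passes electrons from NADH and succinate to oxygen and pumps protons across the inner mitochondrial membrane, and ATP synthase uses that gradient. Complexes I, III and IV are built from subunits of both genomes, while every subunit of complex II is nuclear. Each strand of the mitochondrial genome is transcribed into long precursors that are cut into single mRNAs at the tRNAs between them, so that the level of each mRNA also depends on processing and stability. Nuclear respiratory genes are transcribed one by one, and the factors NRF1, GABP (an ETS family factor) and YY1, with coactivators of the PGC-1 family, are known for acting on their promoters.

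Promoter sequences of 5 nuclear genes are shown because the results below turn on these genes: UQCRQ, UQCRH and COX8A fell after 30 days in SK-N-AS, whereas NDUFS1 and SDHD did not. They come from RefSeq (GRCh38.p14), read 5′ to 3′ on the gene's strand. Each is 120 bases long and lies upstream of the annotated start. The capitals mark the ETS letters CCGGAAGT (ACTTCCGG on the other strand) or, in SDHD only, also the NRF1 core letters CGCATGCG. The positions are chr5:132866522-132866641 on the plus strand for UQCRQ, chr1:46303578-46303697 on the plus strand for UQCRH, chr11:63974500-63974619 on the plus strand for COX8A, chr2:206159503-206159622 on the minus strand for NDUFS1, and chr11:112086744-112086863 on the plus strand for SDHD.
UQCRQ: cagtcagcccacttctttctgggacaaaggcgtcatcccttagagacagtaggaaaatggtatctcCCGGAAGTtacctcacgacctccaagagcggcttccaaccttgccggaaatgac
UQCRH: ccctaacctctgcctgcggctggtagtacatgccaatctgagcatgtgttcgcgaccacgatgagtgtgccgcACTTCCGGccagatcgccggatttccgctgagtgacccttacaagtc
COX8A: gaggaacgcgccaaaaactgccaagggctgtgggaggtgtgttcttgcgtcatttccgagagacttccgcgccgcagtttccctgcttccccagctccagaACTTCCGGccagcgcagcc
NDUFS1: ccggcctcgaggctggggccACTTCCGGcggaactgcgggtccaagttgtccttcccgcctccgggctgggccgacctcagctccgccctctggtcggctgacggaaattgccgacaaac
SDHD: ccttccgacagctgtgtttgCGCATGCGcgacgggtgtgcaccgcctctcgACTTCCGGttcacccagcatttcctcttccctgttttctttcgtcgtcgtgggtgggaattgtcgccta

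The 5 promoters shown were picked by outcome and are not all that carry the ETS letters. COX5B, NDUFA13 and UQCR11 also carry them and were lower in S2D30, so only NDUFS1 and SDHD among the carriers did not fall. Of the 60 nuclear members tested, 38 were lower in S2D30. Of the 63 nuclear members, 53 had a promoter entry. Both strands of the whole window of each entry, from 250 bases before the start to 50 after it, were searched, and no motif's letters contain those of another. The ETS letters occurred in 8 member promoters (15.1%) and in 6.19% of the 15842 RefSeq promoters of protein-coding genes. That background was not limited to genes counted in these cells. The NRF1 letters occurred in 6 member promoters (11.3%, against 2.88%). The YY1 letters AAGATGGCG occurred in 7 (13.2%, against 2.74%), and TATAAA in 6 (11.3%, against 9.63%). These matches describe the letters only and were not tested.

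Library depth was between 16456484 and 37506800 counts, and replicates correlated at 0.963 to 0.993 (log2 CPM, where CPM are counts scaled by library size). Line identity markers did not all follow the MES label. In untreated SK-N-AS, the 12 adrenergic markers summed to 5611 to 11384 CPM, all above the floor of 3 counts, against 960 to 1600 CPM for the mesenchymal markers, of which MEOX2 alone was at the floor. The S2D4 libraries differed widely, with an adrenergic sum of 1469 to 5833 CPM, which overlapped the untreated range, and a mesenchymal sum of 2973 to 5209 CPM. By S2D30 the adrenergic sum was 390 to 522 CPM and the mesenchymal sum 3635 to 4353 CPM. In untreated GIMEN the order was the reverse, 1026 to 1049 against 6846 to 7101 CPM, and PHOX2A, TH and CHGA were among the markers at the floor. Of 12 leukocyte markers, 7 were at the floor in untreated SK-N-AS, but PTPRC was at 187 ± 19 CPM (SD, n = 4) there and at 0.877 CPM in S2D30. In S1D4 the adrenergic sum, 5881 to 8470 CPM, lay within the untreated range, and the mesenchymal sum was 1502 to 1689 CPM. In GIMEN D30 the adrenergic sum was 848 to 945 CPM and the mesenchymal sum 3651 to 4682 CPM. The part of these marker shifts in the respiratory changes below was not tested. In bulk RNA, fewer cells of one kind and less RNA per cell cannot be told apart.

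Nuclear members took a smaller share of the counts in every treated SK-N-AS group, and mitochondrial-encoded members did so in S2D4. Mitochondrial-encoded members held 7.31%, 12.4%, 6.37% and 5.47% of all counts in the 4 untreated SK-N-AS libraries. S1D4 libraries had 5.90 to 8.38%, S2D4 libraries 4.29 to 4.96% and S2D30 libraries 3.34 to 5.53%. All S1D4 libraries lay within the untreated range. The S1D4 mean of 6.88% was below the untreated mean of 7.89% but above the 6.38% left without untreated replicate 2. The untreated and S2D4 libraries did not overlap, whereas untreated replicate 4 lay just under the highest S2D30 libraries. Nuclear members held 0.603%, 0.522%, 0.577% and 0.447% in untreated SK-N-AS and between 0.311 and 0.428% in each treated library, so that no treated SK-N-AS library reached the lowest untreated one.

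In GIMEN the classes parted. The mitochondrial-encoded share was 3.98 ± 0.138% (SD, n = 3) in untreated and 3.95 ± 0.985% in D30 cells, with D30 libraries on both sides of the untreated ones. The nuclear share went from 0.410 ± 0.0121% to 0.321 ± 0.00378% without overlap. Counts of mitochondrial-encoded members per nuclear member count averaged 14.8 ± 6.03 (SD, n = 4) in untreated SK-N-AS. S1D4 averaged 17.2 ± 2.10, S2D4 13.2 ± 1.08 and S2D30 12.7 ± 2.60. Untreated replicate 2, with 23.8 mitochondrial-encoded counts per nuclear count, stood above the other 3 untreated libraries (11.04 to 12.2). In GIMEN the ratio was 9.73 ± 0.537 (SD, n = 3) before and 12.3 ± 3.17 after treatment. The plot of shares by library shows a wider spread, relative to the mean, of the mitochondrial class in untreated SK-N-AS, S1D4, S2D30 and D30. In S2D4 (4.63 ± 0.289% against 0.351 ± 0.0286% for the nuclear class) and in untreated GIMEN it was not clearly wider.

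**Figure D1:**
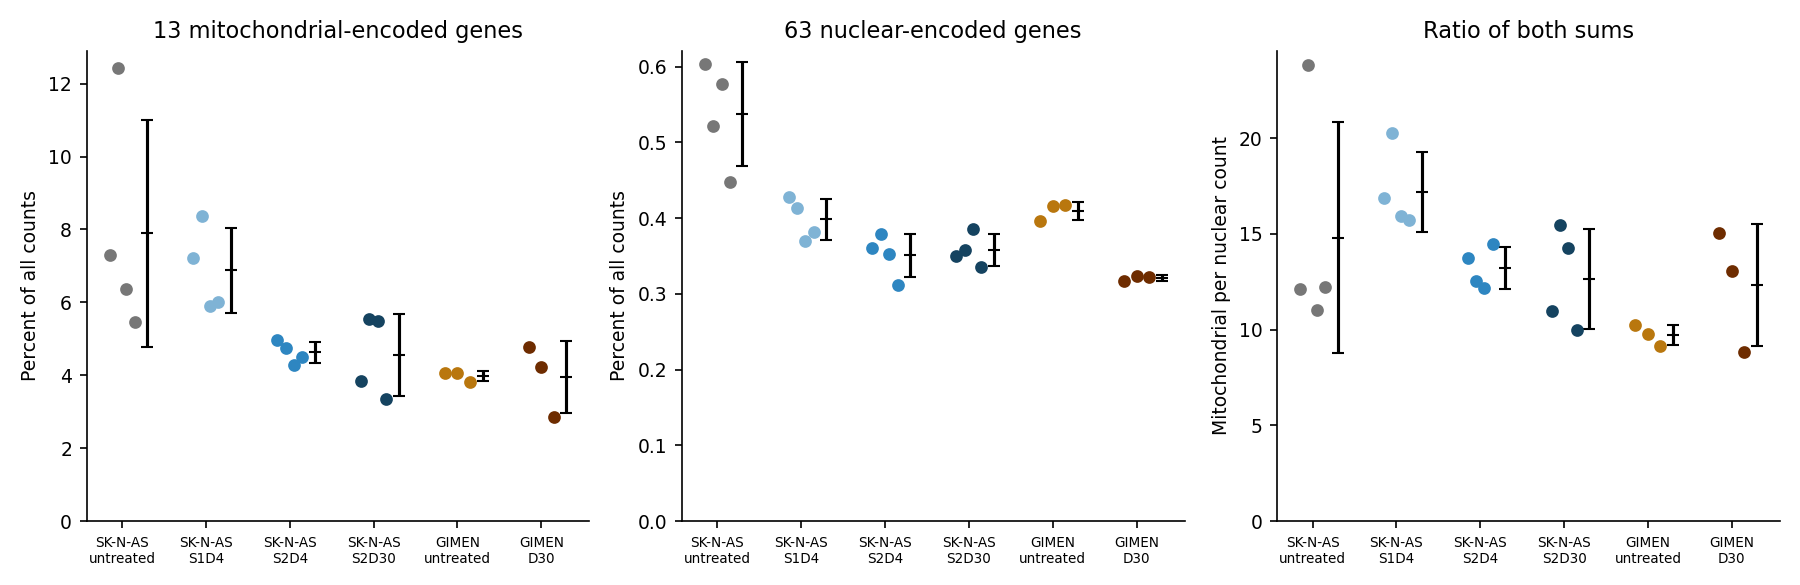
Percent of all counts held by the 13 mitochondrial-encoded members (left) and by the 63 nuclear members (middle), and counts of the first per count of the second (right), in each of the 6 groups. Points are libraries and bars are the mean ± SD; each treated SK-N-AS library lies below the lowest untreated one for the nuclear members (0.447%), and untreated replicate 2 stands out at 12.4% for the mitochondrial ones.

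Among the mitochondrial-encoded genes, S2D30 cells had more MT-ND1 and less of the MT-CO1 to MT-ND3 block than untreated cells. MT-ND1 encodes a membrane subunit of complex I. It was at 2765, 5261, 2094 and 1678 CPM in untreated replicates 1 to 4 and at 6864, 9901, 9772 and 6155 CPM in S2D30. All 4 S2D30 libraries were above the highest untreated one, and the log2 fold change was 1.47 (SE 0.29, adjusted p = 0.000248, edgeR's quasi-likelihood test with Benjamini-Hochberg adjustment over all genes). Leaving out untreated replicate 2, the highest of its group, gave 1.90.

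MT-ND3, another membrane subunit of complex I, went the other way. It was at 2709, 2987, 2560 and 1836 CPM in untreated cells and at 401, 631, 684 and 332 CPM in S2D30, a log2 fold change of -2.30 (SE 0.24, adjusted p = 2.2e-07). MT-CO3, a core subunit of cytochrome c oxidase, was at 8243, 13299, 7256 and 4473 CPM against 1635, 2140, 2251 and 1399 CPM, a change of -2.16 (SE 0.29, adjusted p = 4.1e-06). Neither gene's libraries overlapped. MT-ATP6, the membrane subunit of ATP synthase, was at 4602, 8431, 4544 and 3452 CPM against 1099, 1648, 1734 and 877 CPM, a change of -1.97 (SE 0.28, adjusted p = 7.9e-06). Again each S2D30 library lay below each untreated one.

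The 2 catalytic subunits of cytochrome c oxidase, MT-CO1 and MT-CO2, fell by 1.35 (SE 0.23, adjusted p = 6.5e-05) and 1.64 (SE 0.23, adjusted p = 7.8e-06) on the log2 scale in S2D30. MT-CO1 had 5740 to 8796 CPM in S2D30 against 12765 to 30615 CPM in untreated cells, and MT-CO2 had 2104 to 3756 CPM against 5841 to 13923 CPM, both without overlap. MT-ND6, the only member read from the other strand, fell by 1.05 (SE 0.24, adjusted p = 0.00079). In all, 9 of the 13 mitochondrial-encoded genes were lower and 1 was higher, against 36.5% lower and 33.8% higher among all 15810 genes tested. The 13 had a median log2 fold change of -0.89, against -0.03 for all genes. The calls of MT-ND4, MT-ND4L and MT-ATP8 rested on untreated replicate 2: without it 6 members were lower and MT-ND2 was also higher, at 0.76 (adjusted p = 0.00592). With it, MT-ND2 had a difference of 0.43 and did not pass the test.

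**Figure D2:**
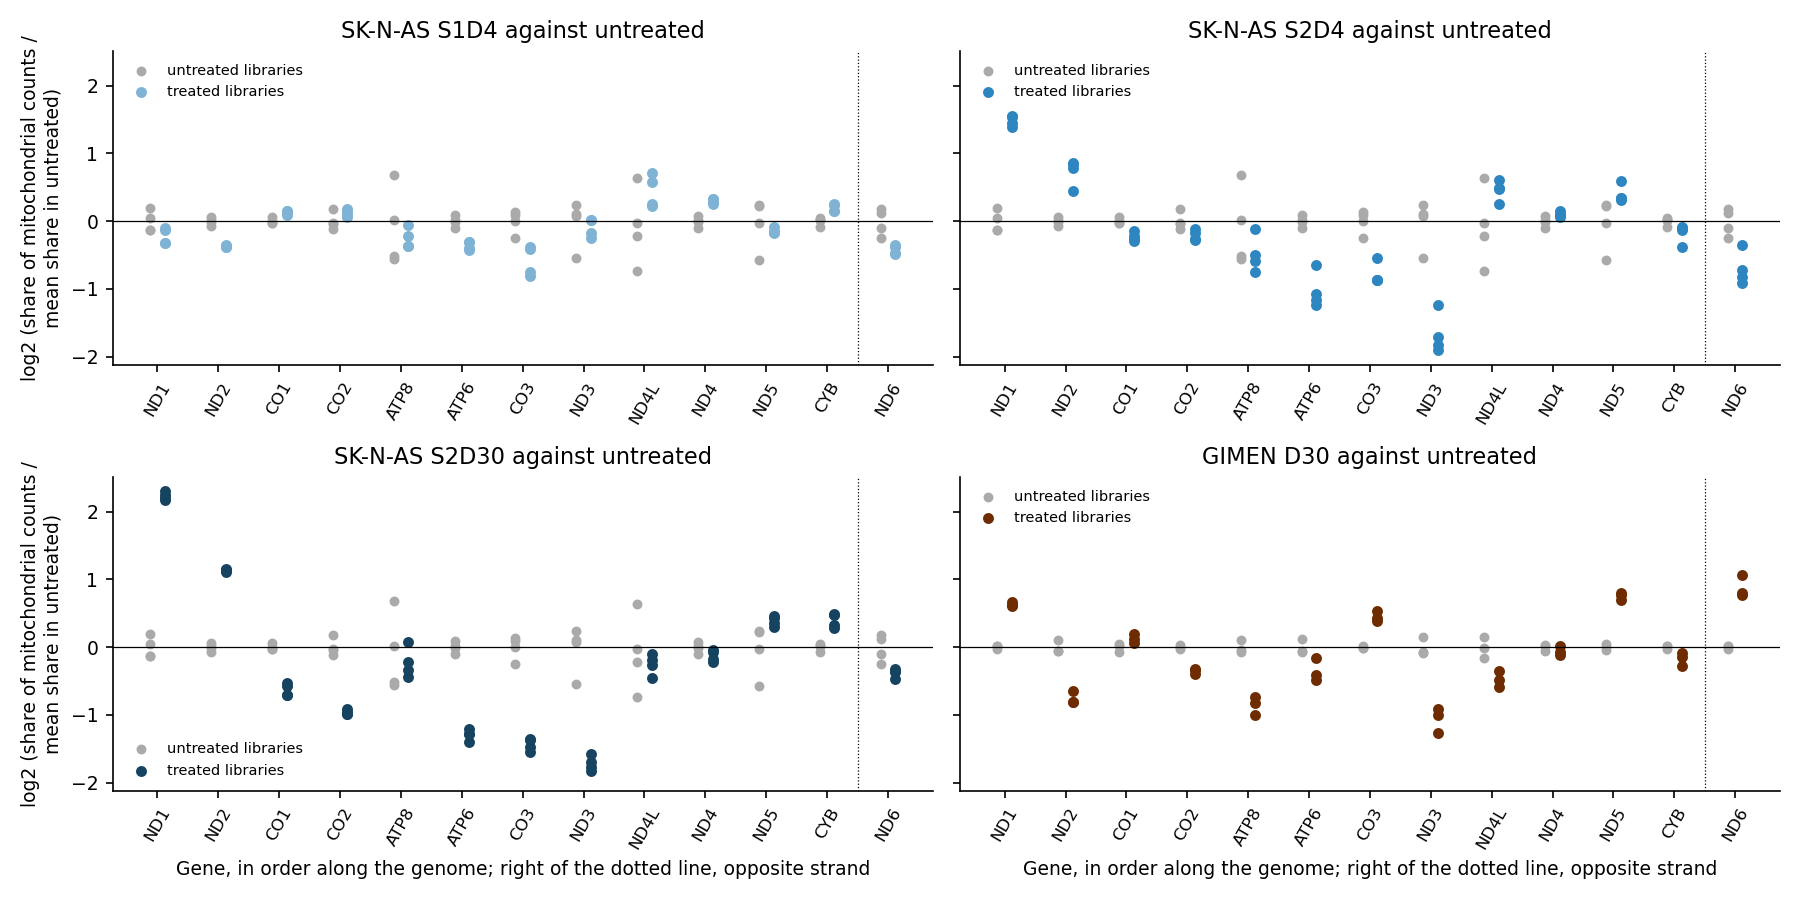
Share of each mitochondrial-encoded gene in the mitochondrial-encoded counts of a library, as log2 of its ratio to the mean untreated share, with genes in genome order on the x axis and MT-ND6 set apart to the right. Grey points are untreated and coloured points treated libraries, 1 panel per treated group; MT-ND1 and MT-ND2 stand above and MT-ATP6, MT-CO3 and MT-ND3 below the untreated libraries in S2D4 and S2D30, and MT-ND2 lies below them in GIMEN D30.

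The makeup of the mitochondrial-encoded counts does not depend on how much of a library they take. Relative to the means, it was more alike than the total share within S1D4, S2D30 and GIMEN D30. That held for most genes in untreated SK-N-AS, though MT-ATP8, MT-ND4L, MT-ND5 and MT-ND3 varied there. It did not hold for several genes in S2D4 (MT-ATP6 3.39 ± 0.667%, total share 4.63 ± 0.289%). Nor did it in untreated GIMEN (MT-ND4L 2.01 ± 0.217%, total share 3.98 ± 0.138%). MT-ND1 made up 3.69 ± 0.409% of the mitochondrial-encoded counts before treatment in SK-N-AS (SD, n = 4), 3.19 ± 0.267% after S1D4, 10.3 ± 0.510% after S2D4 and 17.4 ± 0.685% after S2D30. MT-ND2 went from 10.6 ± 0.441% to 8.19 ± 0.105%, 17.7 ± 2.22% and 23.2 ± 0.286% in the same order. MT-CO1 went from 24.5 ± 0.715% to 26.8 ± 0.540%, 21.02 ± 0.875% and 15.9 ± 1.02%.

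The first 2 genes of the genome order thus took larger shares at each step after S1D4, and the oxidase genes took smaller ones. MT-CO2 went from 12.1 ± 1.08% in untreated to 6.23 ± 0.139% in S2D30, MT-CO3 from 10.7 ± 1.23% to 3.96 ± 0.246%, and MT-ND3 from 3.48 ± 0.755% to 1.06 ± 0.0803%. MT-CYB, the last gene of that strand, went from 6.83 ± 0.247% to 8.99 ± 0.665%. The ratio of MT-ND1 to MT-CO3 counts sums up the shift: 0.335, 0.396, 0.289 and 0.375 in untreated libraries, 0.413 to 0.486 in S1D4, 1.47 to 1.82 in S2D4, and 4.20, 4.63, 4.34 and 4.40 in S2D30. The 4 groups did not overlap in that ratio. Untreated replicate 2, which stood apart in total share, did not stand apart here. These shares were not tested, and the pair was picked after its values were seen.

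Per kilobase of gene, the order of the mitochondrial messages was overturned between untreated and S2D30 cells. In untreated SK-N-AS, MT-CO2 led with a mean of 13449 CPM per kb, followed by MT-CO1 (12271), MT-CO3 (10609), MT-ND4 (9284) and MT-ND2 (7894). MT-ND1 stood at 3085 CPM per kb. In S2D30, MT-ND2 led with 10611 and MT-ND1 followed with 8549, while MT-CO1 was at 4826, MT-CO2 at 4326 and MT-CO3 at 2368 CPM per kb. The most abundant nuclear member of untreated SK-N-AS on this scale, COX6A1, was at 508 ± 93.1 CPM per kb (SD, n = 4).

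In the first stage, S1D4, few single mitochondrial-encoded genes differed beyond their spread. There 2 of 13 were lower and none was higher, against 22.4% and 17.6% of all genes, with a median of -0.46 against -0.01 for all genes. The lower genes were MT-CO3 (log2 fold change -0.84, SE 0.28, adjusted p = 0.024) and MT-ND6 (-0.66, SE 0.23, adjusted p = 0.034). Libraries of both groups overlapped for each of them. Neither passed without untreated replicate 2 (-0.52 and -0.37), nor without S1D4 replicate 3 (-0.72 and -0.57) or S1D4 replicate 4 (-0.71 and -0.58), and MT-ND6 did not without S1D4 replicate 1 (-0.69). Without untreated replicate 4, 5 members were lower. The count of higher genes was also 0 by DESeq2, and 0 at an unadjusted p under 0.05 in edgeR.

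In S2D4, after 4 days with bufalin and new medium, 8 of 13 mitochondrial-encoded genes were lower and 1 was higher, against 32.2% and 30.9% of all genes. The median was -0.82, against -0.02 for all genes. MT-ND3 showed the largest of these differences: its 420 to 763 CPM in S2D4 lay far below the 1836 to 2987 CPM of untreated cells (log2 fold change -2.18, SE 0.24, adjusted p = 6.4e-07). MT-ATP6 fell by 1.63 (SE 0.28, adjusted p = 7.2e-05) and MT-CO3 by 1.42 (SE 0.28, adjusted p = 0.00033). The rise of MT-ND1 by 0.80 (SE 0.29, adjusted p = 0.022), with overlapping libraries, was lost without untreated replicate 3 (0.67, adjusted p = 0.0722) or untreated replicate 4 (0.63, adjusted p = 0.0516). The fall of MT-CYB by 0.81 was lost without untreated replicate 2 (-0.47, adjusted p = 0.0678).

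Set against S1D4, from which those cells came, S2D4 had 2 mitochondrial-encoded genes higher and 6 lower, against 28.3% and 26.8% of all genes. MT-ND1 rose from between 1610 and 2698 CPM in S1D4 to between 4572 and 5578 CPM in S2D4 (log2 fold change 1.32, SE 0.29, adjusted p = 0.001), and MT-ND3 fell from between 1674 and 2388 CPM to between 420 and 763 CPM (-1.90). Neither pair of groups overlapped. Only 2 members were lower without S1D4 replicate 2, and MT-ND2 (0.75) was no longer called without S1D4 replicate 3 (0.67) or S1D4 replicate 4 (0.69). From S2D4 to S2D30, 3 mitochondrial-encoded genes fell and none rose in edgeR, against 26.9% and 24.4% of all genes. At an unadjusted p under 0.05 the count of rises was 1 (MT-ND1), and by DESeq2 it was 1. MT-CO2 fell by 0.82 (SE 0.23, adjusted p = 0.0064), from between 4858 and 5779 CPM to between 2104 and 3756 CPM, with no overlap. MT-CO3 (-0.74) and MT-ND4L (-0.76) were each lost when S2D4 replicate 1, S2D4 replicate 4, S2D30 replicate 1 or S2D30 replicate 4 was left out, MT-ND4L also without S2D4 replicate 2. The values without them ran from -0.75 to -0.63 for MT-CO3 and from -0.75 to -0.58 for MT-ND4L. Without S2D30 replicate 4, 2 members were higher.

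Other rows of the table can hold mitochondrial reads. The nuclear copy MTATP6P1 had 2.80 to 8.70% as many counts as MT-ATP6, depending on the library, and 373 such pseudogene rows held at most 0.0737% of a library's counts. MT-ATP8 shares 46 bases with MT-ATP6, and MT-ND4L shares 7 with MT-ND4, so reads there could be split between them. The strand setting of the counting is not given in the sources used here, so reads of MT-ND6 and of RNA from the opposite strand cannot be told apart. The 2 mitochondrial ribosomal RNAs were not analysed here.

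Nuclear members were lower as a group in each treated SK-N-AS group. In S1D4, 52 of the 60 nuclear members tested were lower and 1 was higher, against 22.4% and 17.6% of all genes, with a median of -0.50 against -0.01. Of the 60, 28 had no overlap between the groups, against 37.9% of all genes. In S2D4, 41 were lower and 2 higher, against 32.2% and 30.9% of all genes (median -0.46, 26 without overlap against 51.1% of all genes). In S2D30, 38 were lower and none was higher, against 36.5% and 33.8% of all genes (median -0.50, 28 without overlap against 66.5% of all genes). The count of higher members in S2D30 was 0 at an unadjusted p under 0.05 in edgeR, 1 by DESeq2, and 1 without untreated replicate 1 or S2D30 replicate 4. COX6A2, with no count in SK-N-AS, COX7B2 (at most 1 count) and COX8C (at most 4 counts) are heart, muscle or testis isoforms and were too low to test.

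**Figure D3:**
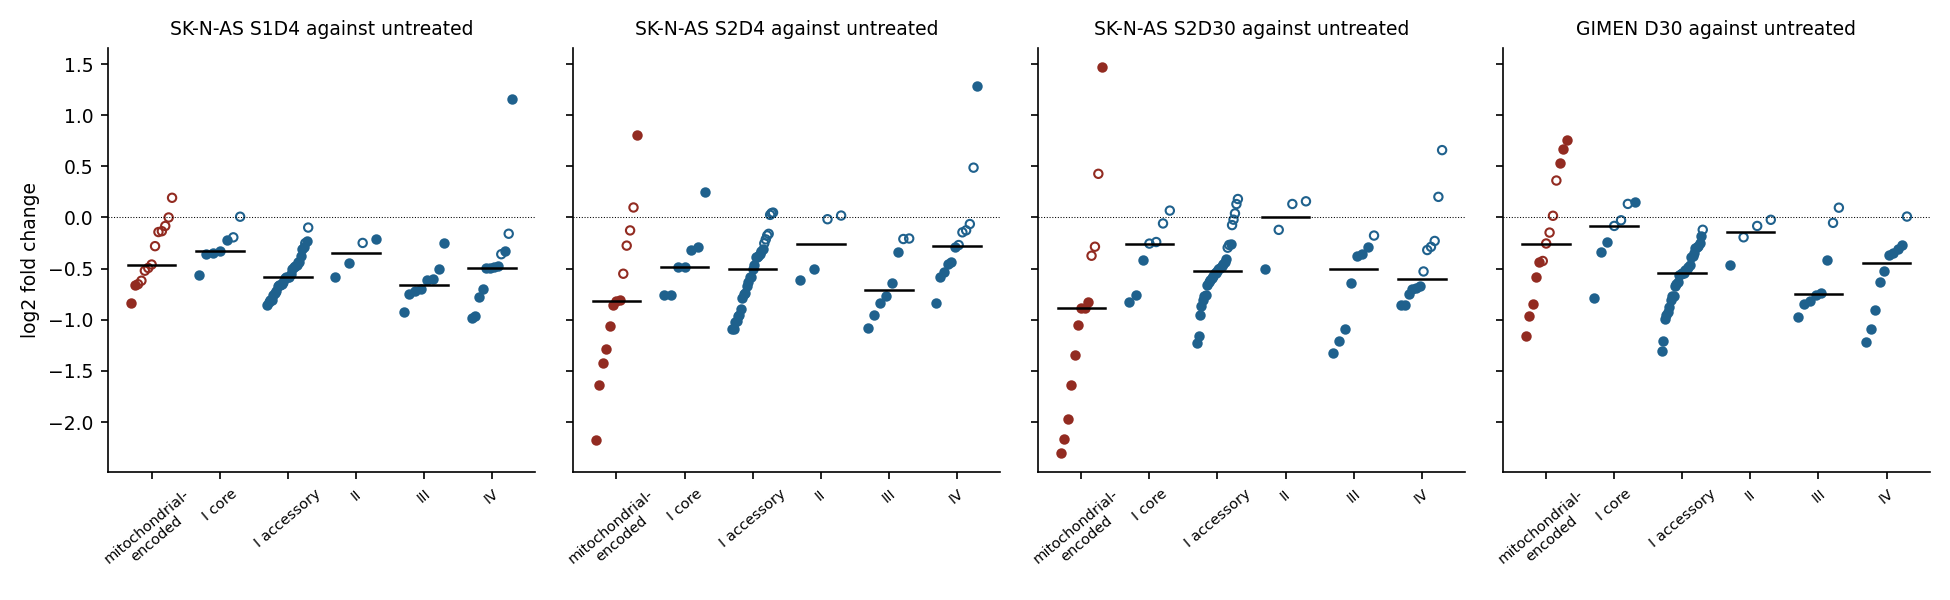
Log2 fold change of each tested member against untreated cells of its line, by module, with 1 panel per treated group; filled points passed the test (adjusted p under 0.05) and the horizontal line is the module's median. Complex III and the accessory subunits of complex I lie lowest among the nuclear modules in S1D4 (medians -0.66 and -0.58). The mitochondrial-encoded genes lie on both sides of 0 in each panel, 11 of 13 below it in each SK-N-AS group and 8 in GIMEN D30.

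The core subunits of complex I, which carry its flavin and iron-sulphur clusters, had medians nearer 0 than its accessory subunits in S1D4 and S2D30, and about the same median in S2D4. In S1D4, 5 of 7 core genes were lower (median -0.33), in S2D4 6 (median -0.48) and in S2D30 3 (median -0.26). These are 71.4%, 85.7% and 42.9%, against 22.4%, 32.2% and 36.5% of all genes. The S2D30 share was thus near that of genes in general. NDUFS1, the largest iron-sulphur subunit, was at 99.6, 97.2, 96.8 and 99.2 CPM in untreated cells and at 82.5 to 87.3 CPM in S1D4, a fall of 0.22 (SE 0.06, adjusted p = 0.01). In S2D4 it was at 113, 113, 116 and 125 CPM, above each untreated library (0.25, SE 0.06, adjusted p = 0.0024). In S2D30 it was at 95.2 to 107 CPM and overlapped the untreated libraries. NDUFV1, which binds NADH, was at 111 to 148 CPM in untreated and 100 to 120 CPM in S2D30 cells, which did not pass the test.

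Of the 29 accessory subunits of complex I, 27 were lower in S1D4 (93.1%) and 21 in both S2D4 and S2D30 (72.4%). Among all genes 22.4%, 32.2% and 36.5% were lower. The accessory subunits had medians of -0.58, -0.50 and -0.52. NDUFB11, a membrane subunit, was at 113, 91.0, 111 and 78.7 CPM in untreated cells and fell to 41.2, 41.1, 46.6 and 39.0 CPM in S2D30 without overlap (log2 fold change -1.23, SE 0.11, adjusted p = 2.1e-08). NDUFB9 was lowest in S2D4: 144 to 216 CPM in untreated, 120 to 157 CPM in S1D4, 82.9 to 93.5 CPM in S2D4 and 112 to 130 CPM in S2D30. Its fall in S2D4 against untreated cells was 1.09 (SE 0.12, adjusted p = 6.4e-07) and its rise from S2D4 to S2D30 was 0.46 (adjusted p = 0.0037). NDUFA11, which helps to hold the membrane arm together, fell by 1.09 in S2D4 (SE 0.15, adjusted p = 8.8e-06), from between 85.8 and 159 CPM to between 55.8 and 67.2 CPM. In a GENCODE annotation of GRCh38, 44.9% of the exon bases of NDUFB11 lie opposite another gene (RBM10). With the strand setting not given, reads of the pair cannot be told apart.

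Complex II, which is also succinate dehydrogenase of the citric acid cycle, was lowered early, and by S2D30 its members differed. Its medians were -0.35 in S1D4, -0.26 in S2D4 and 0.01 in S2D30, where the log2 fold changes ran from -0.50 to 0.16. Lower genes numbered 3 of 4 in S1D4, 2 in S2D4 and 1 in S2D30. These are 75%, 50% and 25%, against 22.4%, 32.2% and 36.5% of all genes. SDHA, the flavoprotein, was at 74.7, 71.6, 73.1 and 71.1 CPM in untreated cells and at 54.6, 52.2, 55.1 and 52.0 CPM in S1D4 (log2 fold change -0.44, SE 0.07, adjusted p = 6.9e-05). It was at 46.8 to 54.4 CPM in S2D4 and at 67.4, 63.3, 68.6 and 67.7 CPM in S2D30, a rise of 0.39 between these groups (adjusted p = 0.000137). The S2D30 libraries were still below each untreated library, but that difference did not pass the test (adjusted p = 0.112). SDHB, the iron-sulphur subunit, remained lower in S2D30 (-0.50, SE 0.12, adjusted p = 0.0015). SDHD, a membrane anchor, was at 31.8 to 38.7 CPM in untreated and 35.4 to 40.6 CPM in S2D30 cells.

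Complex III had the largest median fall of the nuclear modules in S1D4 and S2D4. All 8 of its nuclear members were lower in S1D4 (median -0.66), 6 in S2D4 (median -0.71) and 7 in S2D30 (median -0.51). These are 100%, 75% and 87.5%, against 22.4%, 32.2% and 36.5% of all genes. UQCRQ, a small subunit, was at 208, 172, 187 and 115 CPM in untreated cells, at 75.9 to 106 CPM in S1D4 and at 60.6, 72.4, 79.2 and 60.2 CPM in S2D30 (log2 fold change -1.32, SE 0.16, adjusted p = 9.2e-07). No treated library reached the lowest untreated one. UQCRFS1, the Rieske iron-sulphur protein, was at 96.2, 79.3, 83.8 and 54.4 CPM in untreated cells and fell by 1.21 in S2D30 (SE 0.13, adjusted p = 5.0e-07), to 32.6 to 36.3 CPM. UQCRH, the hinge protein, was at 209 to 313 CPM in untreated and 114 to 156 CPM in S2D30 cells (-1.09, adjusted p = 1.02e-06). UQCRB departed from the others. It was at 84.2, 83.7, 84.1 and 54.1 CPM in untreated, 36.5 to 48.1 CPM in S2D4 and 60.5 to 79.1 CPM in S2D30 cells, a rise of 0.66 between these stages (SE 0.14, adjusted p = 0.00095).

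In complex IV, 9 of 12 tested nuclear members were lower in S1D4 and 6 in S2D4 and S2D30, with medians of -0.49, -0.28 and -0.60. These are 75%, 50% and 50%, against 22.4%, 32.2% and 36.5% of all genes. COX7C had the largest fall of any nuclear member in S1D4: 213, 192, 210 and 150 CPM in untreated against 102, 102, 88.0 and 95.7 CPM (log2 fold change -0.98, SE 0.12, adjusted p = 7.5e-06). COX7B, a small subunit, was at 71.0, 62.2, 57.8 and 37.1 CPM in untreated and 33.7, 35.3, 23.4 and 24.6 CPM in S1D4 (-0.96, SE 0.18, adjusted p = 0.00057). It was back at 42.7 to 59.3 CPM in S2D4, a rise of 0.84 over S1D4 (SE 0.18, adjusted p = 0.0011). COX8A and COX5A stepped down further. COX8A was at 113 to 164 CPM in untreated, 94.7 to 112 CPM in S1D4 and 70.8 to 90.6 CPM in S2D30 (-0.85, adjusted p = 4.51e-06), and COX5A was at 65.2 to 104 CPM in untreated and 45.9 to 53.2 CPM in S2D30 (-0.85, adjusted p = 8.2e-06).

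NDUFA4 was lowest in S1D4. It was at 199, 176, 167 and 124 CPM in untreated and at 94.5 to 111 CPM in S1D4 (log2 fold change -0.70, adjusted p = 0.00049). It then stood at 136 to 166 CPM in S2D4, a rise of 0.55 over S1D4 (adjusted p = 0.00189), and at 180, 202, 222 and 161 CPM in S2D30, which overlapped untreated cells. Without untreated replicate 1, NDUFA4 was higher in S2D30 than in untreated cells (0.33, adjusted p = 0.036), and with it the value was 0.20 and did not pass.

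The higher calls among rare isoforms were of very low messages. COX6B2, a testis isoform, was at 1.58 to 2.33 CPM in untreated and at 4.92, 6.17, 3.29 and 3.14 CPM in S1D4 (1.15, SE 0.38, adjusted p = 0.023). It was lost when untreated replicate 1 (1.12), untreated replicate 3 (1.07), S1D4 replicate 1 (1.09) or S1D4 replicate 2 (0.95) was left out. COX7A1, a heart and muscle isoform, was under 1 CPM throughout, at 0.153 to 0.327 CPM in untreated and 0.392 to 0.976 CPM in S2D4 (1.28, SE 0.44, adjusted p = 0.018), and was lost without untreated replicate 3 (1.12) or S2D4 replicate 3 (1.07).

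Between the treated groups of SK-N-AS, nuclear members were called no more often than genes in general. From S1D4 to S2D4, 15 of 60 rose (25%) and 8 fell (13.3%), against 28.3% and 26.8% of all genes, with a median of 0.02, and 22 had no overlap, against 49.4% of all genes. From S2D4 to S2D30, 10 rose (16.7%) and 11 fell (18.3%), against 24.4% and 26.9% of all genes, with a median of 0.00, and 19 had no overlap, against 50.3% of all genes. Besides COX7B and NDUFA4, NDUFA1 rose in S2D4 over S1D4 (0.55, adjusted p = 0.0014), while NDUFB9 (-0.66, adjusted p = 0.0002) and NDUFB10 (-0.59, adjusted p = 0.0015) fell. From S2D4 to S2D30, UQCRQ fell again (-0.55, adjusted p = 0.0064), as did NDUFB11 (-0.50, adjusted p = 0.00084). The 8 falls from S1D4 to S2D4 became 5 without S1D4 replicate 1, 4 without S1D4 replicate 2 and 5 without S2D4 replicate 3. The 10 rises from S2D4 to S2D30 became 4 without S2D30 replicate 3, and the 11 falls became 7 without S2D30 replicate 1 or S2D30 replicate 4.

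**Figure D4:**
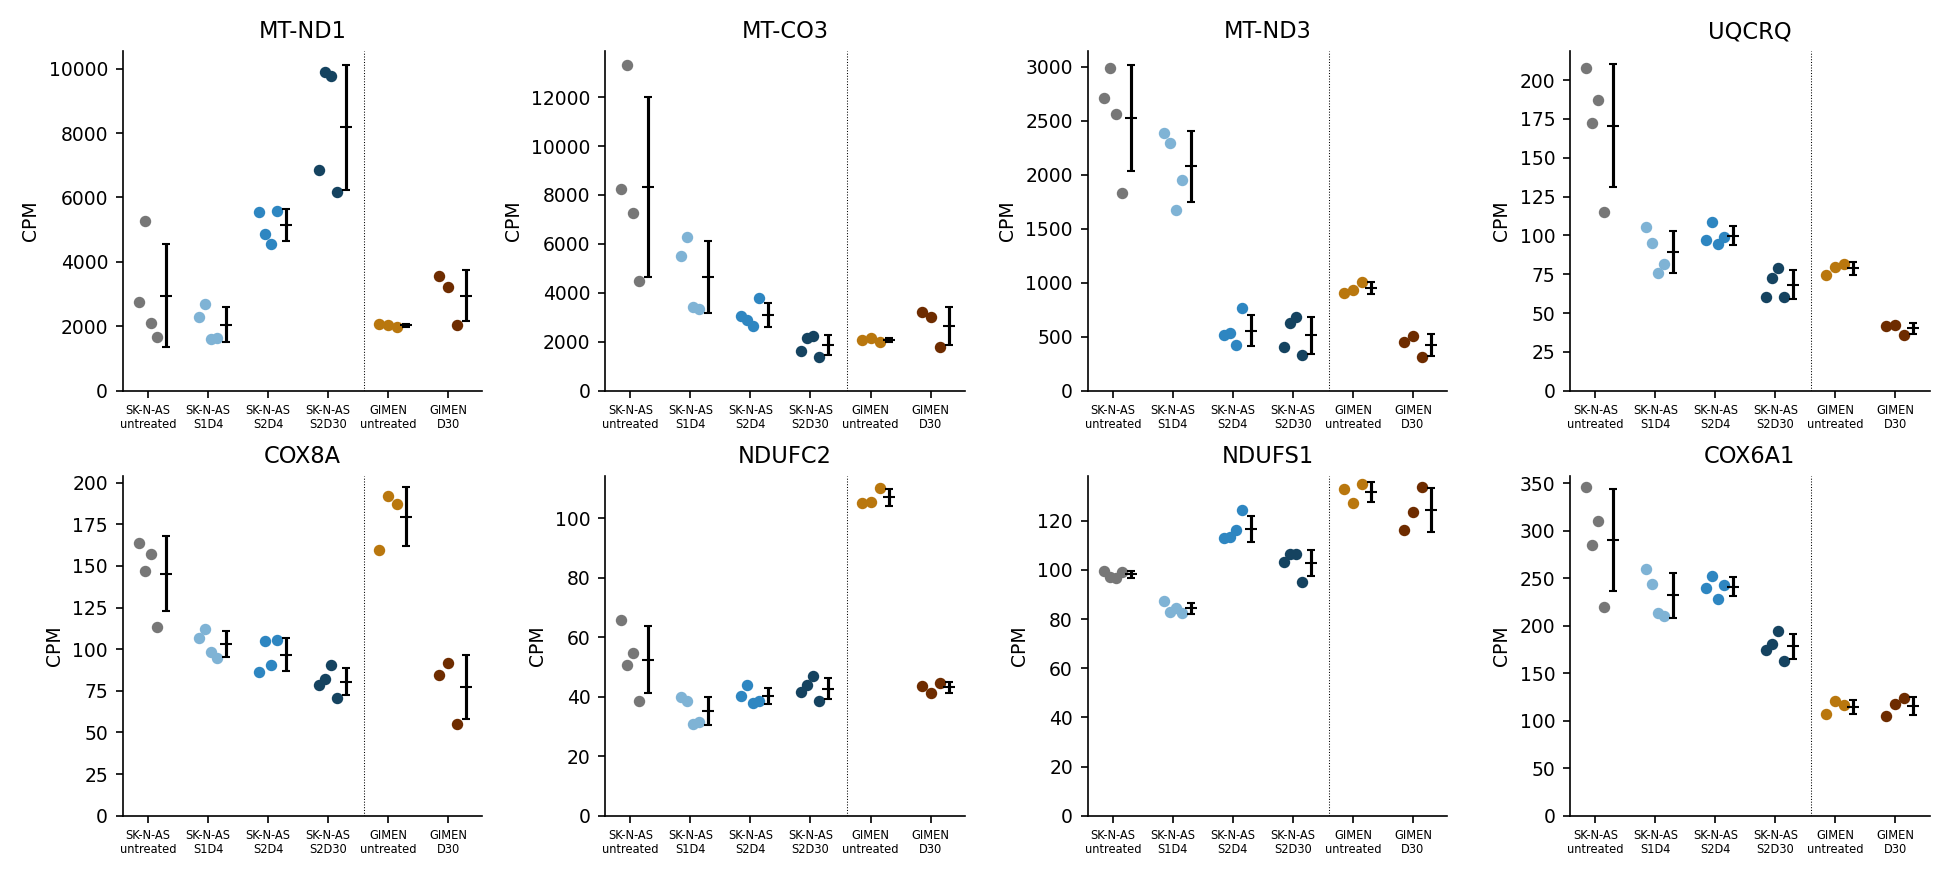
CPM of 8 members in every library of the 6 groups, scaled within each line; points are libraries and bars are the mean ± SD of each group. MT-ND1 climbs to 6155 to 9901 CPM in S2D30 while MT-CO3 and MT-ND3 drop, UQCRQ and COX8A are lower in both lines, NDUFS1 stays between 82.5 and 135 CPM throughout, NDUFC2 drops mainly in GIMEN, and COX6A1 drops in SK-N-AS S2D30 but not in GIMEN D30.

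In GIMEN, 47 of 58 nuclear members tested were lower in D30 and 1 was higher, against 36% and 35.5% of all 13517 genes, with a median of -0.49 against 0.02 for all genes. The same number, 47, had no overlap between groups, against 75.1% of all genes. Lower genes numbered 28 of 29 among the accessory subunits of complex I, 6 of 8 in complex III, 9 of 10 in complex IV, 3 of 7 among the core subunits of complex I and 1 of 4 in complex II. NDUFC2, a membrane subunit of complex I, was at 105, 105 and 110 CPM in untreated and 43.5, 41.2 and 44.8 CPM in D30 cells (log2 fold change -1.31, SE 0.06, adjusted p = 5.9e-09). COX8A was at 159, 192 and 187 CPM against 84.3, 91.7 and 55.3 CPM (-1.22, SE 0.15, adjusted p = 2.03e-05). NDUFS6, a zinc-binding accessory subunit, was at 31.9, 31.0 and 32.8 CPM against 12.8, 14.6 and 13.9 CPM (-1.21, SE 0.08, adjusted p = 1.4e-07). For each of the 3 the groups were clearly apart.

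Other members showed little difference in GIMEN. NDUFS1 was at 127 to 135 CPM in untreated and 116 to 134 CPM in D30, COX6A1 at 107 to 121 CPM and 105 to 124 CPM, UQCRB at 80.9 to 93.0 CPM and 86.4 to 101 CPM, and SDHA at 150 to 153 CPM and 137 to 150 CPM. None of these 4 passed the test. The single higher member, NDUFS8, an iron-sulphur subunit of complex I, was at 69.1 to 73.2 CPM against 76.8 to 83.4 CPM (0.16, SE 0.06, adjusted p = 0.035). It was lost without untreated replicate 1 (0.12), replicate 2 (0.17) or replicate 3 (0.16) or without D30 replicate 2 (0.12). Without D30 replicate 3, 2 members were higher.

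Of the mitochondrial-encoded genes of GIMEN, 3 of 13 were higher (23.1%) and 5 lower (38.5%), with a median of -0.25. Among all genes 35.5% were higher and 36% lower, shares near or above those of these genes. MT-ND6 was at 619, 645 and 607 CPM in untreated and 1243, 1062 and 862 CPM in D30 (log2 fold change 0.76, SE 0.11, adjusted p = 7.9e-05). MT-ND5, the longest of the mitochondrial messages, was at 2115, 2088 and 1908 CPM against 3984, 3555 and 2160 CPM (0.67, SE 0.17, adjusted p = 0.0049). The D30 libraries were above the untreated ones for both, though D30 replicate 3 only narrowly so for MT-ND5. MT-ND1 rose by 0.53 (SE 0.16, adjusted p = 0.01), with D30 replicate 3, at 2054 CPM, inside the untreated range of 1988 to 2076 CPM.

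MT-ND3 fell in GIMEN as it had in SK-N-AS, from 905, 930 and 1012 CPM to 453, 507 and 312 CPM (-1.16, SE 0.14, adjusted p = 1.9e-05). MT-ATP8 fell by 0.96 (SE 0.11, adjusted p = 1.5e-05) and MT-ND2 by 0.84 (SE 0.17, adjusted p = 0.00079), from 4635, 4693 and 4973 CPM to 3112, 3053 and 1798 CPM. For all 3 the groups did not overlap. D30 replicate 3 had the lowest value of its group for each gene in this account of mitochondrial messages. The fall of MT-CO2 (-0.44, adjusted p = 0.037) was lost without untreated replicate 1 (-0.45), replicate 2 (-0.42) or replicate 3 (-0.46) or without D30 replicate 2 (-0.50). Without D30 replicate 3, 5 members were higher, and without D30 replicate 1, 8 were lower. The nuclear copy MTND2P28 had 8.0 to 12.7% as many counts as MT-ND2 in GIMEN and 0.144 to 0.336% in SK-N-AS.

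The 30-day changes of the lines were then compared gene by gene, by an interaction in 1 model of 14 libraries. Doses, media and the first stage differed between the lines and cannot be told apart from the line. Of the mitochondrial-encoded genes, 6 of 13 changed more towards lower in SK-N-AS and 1 more towards higher, against 25.2% and 24.5% of all 16246 genes. MT-CO3 differed by -2.54 (SE 0.40, adjusted p = 5.3e-05): each S2D30 library lay below each untreated one, whereas GIMEN libraries were at 2069, 2155 and 1982 CPM before and 3202, 2997 and 1772 CPM after treatment. MT-ND6 differed by -1.83 (SE 0.31, adjusted p = 0.00012), falling in SK-N-AS and rising in GIMEN. MT-ND2 differed by 1.26 (SE 0.40, adjusted p = 0.015), and without untreated SK-N-AS replicate 2 a further mitochondrial-encoded gene was higher. The difference for MT-ND1, 0.92, did not pass (adjusted p = 0.081).

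**Figure D5:**
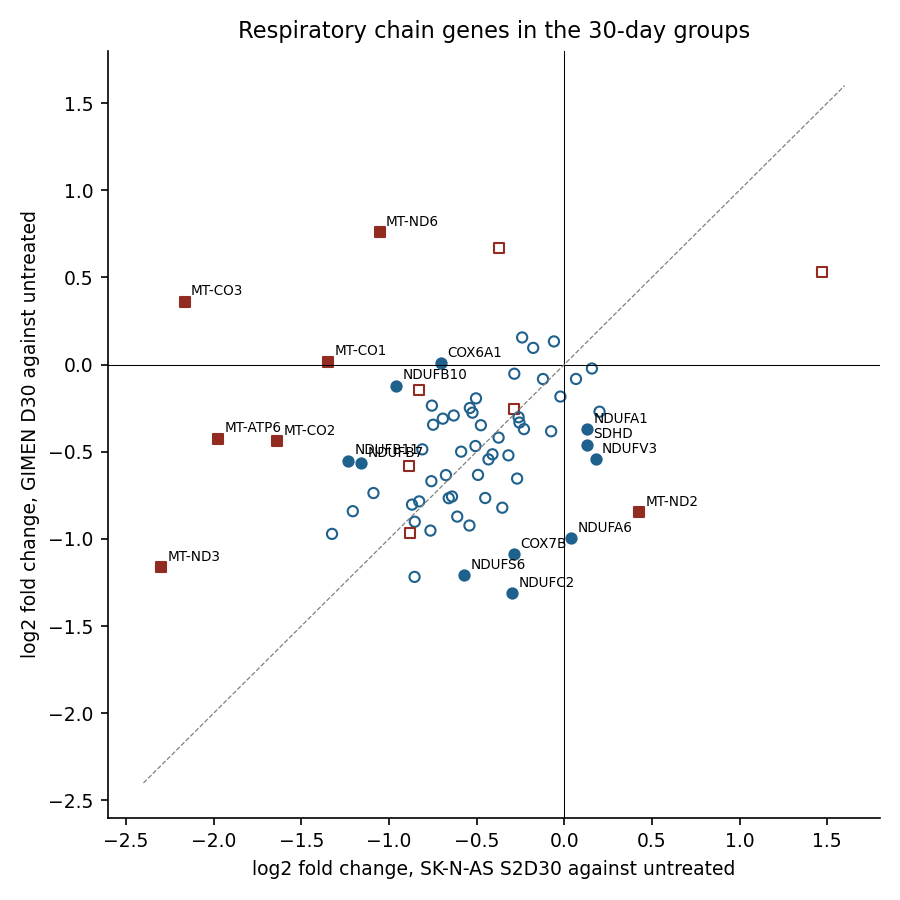
Log2 fold change after 30 days in GIMEN (y) against that in SK-N-AS (x) for members tested in both lines, 1 of them left out; squares are mitochondrial-encoded and circles nuclear genes, the dashed line is equal change, and filled, named points passed the test of the difference between lines. MT-CO3 (-2.54) and MT-ND6 (-1.83) lie farthest above the dashed line, and most nuclear genes sit below 0 on both axes.

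For nuclear members, 5 of 60 changed more towards lower in SK-N-AS and 7 more towards higher, a smaller share than among all genes. NDUFA6, an accessory subunit of complex I, was at 26.9 to 40.4 CPM in untreated SK-N-AS and 32.5 to 40.3 CPM in S2D30, but fell from 37.5, 43.2 and 40.6 CPM to 21.5, 20.5 and 18.8 CPM in GIMEN (difference 1.02, SE 0.18, adjusted p = 0.00021). NDUFC2 (0.99, SE 0.19, adjusted p = 0.00034) and COX7B (0.78, SE 0.23, adjusted p = 0.011) also had the larger fall in GIMEN. The opposite held for NDUFB10 (-0.85, SE 0.18, adjusted p = 0.0008), COX6A1 (-0.73, SE 0.18, adjusted p = 0.0025) and NDUFB11 (-0.70, SE 0.17, adjusted p = 0.0023). Without untreated SK-N-AS replicate 4, whose nuclear members were the lowest of the untreated libraries, 20 in place of 5 were lower, and without S2D30 replicate 3 there were 9.

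Of the 38 nuclear members lower in S2D30, 33 were also lower in GIMEN D30, which is 86.8% of the former and 70.2% of the 47 lower in GIMEN. Among all genes tested in both lines these shares were 60.5% and 61.6%. Of the 58 nuclear members tested in both lines, 47 were lower in GIMEN (81%), so that the 86.8% lies near the share of all members. Of 13088 genes tested in both lines, 4721 were lower in GIMEN, a much smaller share. UQCRQ, UQCRFS1, UQCRC1, COX5A and COX8A were among the 33. UQCRFS1 went from between 64.3 and 64.7 CPM to between 31.3 and 41.0 CPM in GIMEN (-0.84) and UQCRC1, a core protein of complex III, from between 136 and 142 CPM to between 77.2 and 85.5 CPM (-0.76). Of the mitochondrial-encoded genes, 4 were lower in both lines, 1 was higher in both (MT-ND1) and 1 moved in opposite directions (MT-ND6). Across genes, the changes of the lines correlated at r = 0.366 (rho = 0.406) over 58 nuclear members and at r = 0.262 (rho = 0.203) over 13 mitochondrial-encoded ones. Genes are not independent replicates, and the libraries of a line are shared by all points.

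Nuclear members are short, with a median transcript length of 1060 bases against 3154 for all genes with a length, and in SK-N-AS the longer of them tended to fall less. Their fold change and length had a Spearman rho of 0.286 in S1D4, 0.456 in S2D4, 0.463 in S2D30 and 0.207 in GIMEN D30, against 0.0865, 0.126, 0.109 and 0.131 over all genes with a length. Long members differed among themselves by S2D30: NDUFS1 and SDHA changed too little to pass the test, whereas UQCRFS1, with a longer transcript than SDHA, fell by 1.21. These are descriptions across genes of the same libraries, and the part of length in the changes was not tested.

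Genes of the same pathway that the symbol rule does not take moved alike in part. Of all genes tested, 22.4%, 32.2% and 36.5% were lower and 17.6%, 30.9% and 33.8% higher in S1D4, S2D4 and S2D30, and 36% lower and 35.5% higher in GIMEN D30. Of 7 other respiratory genes tested in SK-N-AS, 5 were lower in S1D4, 5 in S2D4 and 4 in S2D30, with 1, 1 and 2 higher. In GIMEN 3 of 6 were lower and 2 higher. NDUFAB1, the mitochondrial acyl carrier protein of complex I, fell in the 3 SK-N-AS groups (log2 fold changes -0.76, -0.55 and -1.16) and in GIMEN (-0.60). COX4I1, the common form of a complex IV subunit, fell in SK-N-AS (-0.58, -0.54 and -0.32) and did not pass in GIMEN (201 to 224 CPM before and 199 to 206 CPM after). CYC1, cytochrome c1 of complex III, fell likewise (-0.44, -0.40 and -0.31), also in GIMEN (-0.39).

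Exceptions stood beside them. C15orf48, which encodes a paralogue of NDUFA4, rose by 2.17, 1.95 and 6.40 in S1D4, S2D4 and S2D30 (adjusted p = 5.41e-09 in the last). NDUFA4L2, another paralogue, fell in S2D30 (-2.03) and rose in GIMEN (1.47), and the difference between lines passed the test (-3.50, adjusted p = 0.000793). Its log2 fold change in S2D4 was already -3.13. COX7A2L, a factor in supercomplex assembly, fell in S1D4 (-0.35) and rose in S2D30 (0.53) and GIMEN (0.34). CYCS, cytochrome c, fell in S1D4 (-0.56), S2D4 (-0.24) and GIMEN (-1.37), and did not pass in S2D30.

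Among the genes for nuclear subunits of ATP synthase, 16, 15 and 16 of 19 were lower in S1D4, S2D4 and S2D30, with medians of -0.48, -0.42 and -0.81. In GIMEN 18 of 19 were lower (median -0.72). These are 84.2%, 78.9%, 84.2% and 94.7%, against 22.4%, 32.2%, 36.5% and 36% of all genes, and at most 2 were higher in any comparison. ATP5J2 fell in each SK-N-AS group (-0.86, -0.77 and -1.13) and in GIMEN (-1.64), as did ATP5A1, the alpha subunit (-0.48, -0.72, -0.81 and -0.28). Genes for mitochondrial ribosomal proteins, which translate the mitochondrial-encoded messages, were lower in 47, 40 and 56 of 78 cases in SK-N-AS (medians -0.36, -0.28 and -0.55) and in 63 of 78 for GIMEN (median -0.60). These are 60.3%, 51.3%, 71.8% and 80.8%, with 1, 7, 3 and 2 higher. MRPL11 fell in all 4 comparisons (-1.10, -0.84, -1.23 and -1.31). Of 18 genes of the citric acid cycle, 9 were lower in each SK-N-AS group (50%) and 12 in GIMEN (66.7%), with at most 4 higher in any comparison. IDH2, mitochondrial isocitrate dehydrogenase, fell in SK-N-AS (-1.66, -3.14 and -4.82) and in GIMEN (-2.94).

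Assembly factors were more mixed. For complex I, 8 of 15 were lower in each SK-N-AS group (53.3%) and 10 in GIMEN (66.7%), with 1, 2, 1 and 2 higher and with NDUFAF3 lower throughout (-0.93, -1.36, -1.44 and -0.42). NDUFAF1 rose in S2D4 (0.84) and S2D30 (1.36) and fell in GIMEN (-0.59). For complexes II to IV, 14, 12 and 18 of 36 were lower in SK-N-AS (38.9%, 33.3% and 50%), and 22 in treated GIMEN cells (61.1%), while 3, 5, 5 and 8 were higher. All genes were lower in 22.4%, 32.2%, 36.5% and 36% of cases, so that the share of these factors in S2D4 was near that of genes in general. The factor COA6 rose in S2D30 (0.56) and fell in GIMEN (-0.75).

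Genes that act on mitochondrial RNA and DNA were called in both directions. Of 23 genes for mitochondrial RNA processing and stability, 11 were lower in S1D4, 9 in S2D4, 12 in S2D30 and 14 in GIMEN, with 1, 6, 2 and 2 higher. The lower calls make up 47.8%, 39.1%, 52.2% and 60.9%. SLIRP, which with LRPPRC stabilises mitochondrial mRNAs, fell in SK-N-AS (-1.03, -1.03 and -1.92) and in GIMEN (-1.61). LRPPRC itself did not pass in any comparison with untreated cells. Of 20 genes for mitochondrial DNA transcription and maintenance, 6, 9 and 8 were lower and 3, 7 and 7 higher in the SK-N-AS comparisons. The lower shares of 30%, 45% and 40% were above the 22.4%, 32.2% and 36.5% of all genes by little in S2D30 and by more in the other groups, and the higher shares of 15%, 35% and 35% were near the 17.6%, 30.9% and 33.8% of all genes. For GIMEN 12 were lower and 5 higher. POLRMT, the mitochondrial RNA polymerase, rose in SK-N-AS (0.67, 1.46 and 1.16) and did not pass the test in GIMEN. TFAM, which packages mitochondrial DNA, fell in S1D4 (-0.32) and in GIMEN (-0.52). SSBP1, the mitochondrial single-strand binding protein, fell in SK-N-AS (-0.81, -0.33 and -0.81) and GIMEN (-1.39).

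Of 17 regulators of nuclear respiratory genes, 11 were higher (64.7%) and 3 lower (17.6%) in S2D30, against 33.8% and 36.5% of all genes. In GIMEN D30, 10 of 16 were higher (62.5%) and 3 lower (18.8%), against 35.5% and 36% of all genes. In S1D4 2 were higher and 2 lower, and in S2D4 7 were higher and 4 lower. PPARGC1A, the PGC-1 alpha coactivator, fell in S1D4 (-1.76) and S2D4 (-0.89). In S2D30 it was at 18.1 to 24.6 CPM against 1.84 to 2.57 CPM in untreated cells, without overlap (log2 fold change 3.19, SE 0.21, adjusted p = 1e-09). In GIMEN it rose by 2.48 (SE 0.49, adjusted p = 0.000777) from at most 9 counts per library. The nuclear members themselves were lower in the same libraries.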

How the data were processed

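The authors deposited raw counts per gene, 1 column for each of the 22 libraries, as whole numbers without normalization, as the values themselves show. Per the labels' protocols, DNase-treated total RNA was sequenced paired-end on a HiSeq X. The aligner, genome build, counting tool and strand setting are not given in the sources used here. Counts were tested in R 4.3.3 with edgeR 4.0.16 (filterByExpr with a minimum count of 10 and a minimum total of 15, TMM scaling, glmQLFit and glmQLFTest). One model held the 16 SK-N-AS libraries, another the 6 GIMEN libraries, and an interaction model the 14 untreated and 30-day libraries. The Benjamini-Hochberg adjustment covered every gene tested in a model, and calls needed an adjusted p under 0.05. CPM were scaled within each line, and SD and SE refer to libraries and to the fitted model. Total counts of 16456484 to 37506800 per library set the precision. A gene with at most 3 counts in each library of a group was called at the floor, which covers counting error only. The method was tested on simulated data.

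Members and gene lists were chosen with earlier results of these data known. Named genes were all mitochondrial-encoded members, a fixed set of nuclear members and isoforms, and in each comparison the 3 largest rises and falls among nuclear members with an adjusted p under 0.05, at least 10 CPM and no overlap of libraries (overlap allowed between lines). Of each further list, fixed genes and the largest rise and fall were named. UQCRH, SDHD and the genes said to be level were named after their values were seen. Lengths and overlaps came from GENCODE release 29, promoters from RefSeq. Alternatives were other scalings and filters, DESeq2 1.42.0, a replicate block, the compared groups alone and each library left out. The term for replicates 3 and 4 of untreated and S1D4 cells, and the joint omission of 2 libraries, were added after seeing the data. Values of 2 genes are not reported here.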

Additional observations from a re-analysis of the deposited data

Results flagged for a closer look

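In 6 of 180 groups of 4 libraries, 1 library stood apart from the other 3 by Dixon's test. Any flag of the genes not reported here is left out of the 6. Chance gives about 1 in 20 for each group, but the groups share the same libraries and are not independent. Untreated SK-N-AS replicate 4 was low for COX6C (51.4 CPM, the others 78.2 to 79.9) and UQCRB (54.1 CPM, the others 83.7 to 84.2). S2D4 replicate 4 was low for NDUFA8 (15.9 CPM, the others 27.4 to 28.3), S1D4 replicate 1 was low for NDUFV1 (122 CPM, the others 135 to 137), and S2D30 replicate 3 was high for SDHB (46.6 CPM, the others 41.8 to 42.0). Untreated replicate 2 had a log2 ratio of mitochondrial-encoded to nuclear counts of 4.57, the others 3.46 to 3.61.

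The members whose 30-day change differed between the lines by the interaction test include the 18 below. Values are the log2 change in SK-N-AS minus that in GIMEN. Among mitochondrial-encoded genes they were -2.54 for MT-CO3, -1.83 for MT-ND6, -1.56 for MT-ATP6, -1.38 for MT-CO1, -1.21 for MT-CO2, -1.16 for MT-ND3 and 1.26 for MT-ND2. Nuclear genes with lower values in SK-N-AS included NDUFB10 (-0.85), COX6A1 (-0.73), NDUFB11 (-0.70) and NDUFB7 (-0.61). Those with higher values were NDUFA1 (0.49), SDHD (0.58), NDUFS6 (0.63), NDUFV3 (0.71), COX7B (0.78), NDUFC2 (0.99) and NDUFA6 (1.02).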

How the results depend on the processing

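Counts of called members were recomputed under each alternative, and 419 such counts stayed within 1.5 times the value reported while 69 did not. For single genes, 2188 values kept their direction and side of the threshold, 139 no longer passed, 4 newly passed and 3 changed sign. The sign changes all concern MT-ND2 in S2D4, not called at 0.10: -0.17 with a term for replicates 3 and 4, -0.016 when untreated replicate 3 was left out, and -0.045 to 0.43 over all libraries left out. The cause was not tested for any change below.

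In S1D4, 2 mitochondrial-encoded genes were lower, but 0 with the compared groups alone, 0 with untreated replicate 2 and S2D4 replicate 4 both left out, and 4 with the added term for replicates 3 and 4. In S2D4 the 1 higher mitochondrial-encoded gene became 0 with that term, and the 2 higher nuclear genes became 1 with a mean count of at least 10 or the compared groups alone. In S2D30 the 1 higher mitochondrial-encoded gene became 2 with a replicate block or both libraries left out, and the 0 higher nuclear genes became 1 with DESeq2 size factors, no filter, DESeq2 or the added term. Of S2D4 against S1D4, the 2 higher mitochondrial-encoded genes became 1 with the term, the 6 lower ones 10 with the compared groups alone, and the 15 higher nuclear genes 8 with upper-quartile factors. Of S2D30 against S2D4, the 0 higher mitochondrial-encoded genes became 1 with DESeq2 size factors, upper-quartile factors, a replicate block, the compared groups alone and DESeq2, and the 11 lower nuclear genes became 6 with upper-quartile factors. In GIMEN the 1 higher nuclear gene became 2 with upper-quartile factors and 0 with no filter, a replicate block or DESeq2. Of the difference between lines, the 1 higher mitochondrial-encoded gene became 2 with no filter or a replicate block, and the 5 lower nuclear genes became 9 with upper-quartile factors and 10 with a replicate block. With mitochondrial genes left out of the total, the nuclear share was 0.428% in S1D4, 0.427% in untreated GIMEN and 0.334% in D30, and the mitochondrial-encoded counts were 4.15% of that total in untreated GIMEN.

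With each library left out in turn, counts ranged as follows. In S1D4, lower mitochondrial-encoded genes numbered 0 to 5, higher nuclear ones 0 to 1 and lower nuclear ones 39 to 53. In S2D4, the higher and lower mitochondrial-encoded genes numbered 0 to 1 and 7 to 9, the nuclear ones 1 to 2 and 32 to 49. In S2D30 they were 1 to 2 and 6 to 9, and 0 to 1 and 33 to 47. For S2D4 against S1D4 they were 1 to 2 and 2 to 7, and 10 to 17 and 4 to 8. For S2D30 against S2D4 they were 0 to 2 and 1 to 3, and 4 to 10 and 7 to 12. In GIMEN they were 3 to 5 and 4 to 8, and 0 to 2 and 43 to 48. Between lines they were 1 to 2 and 6 to 7, and 6 to 10 and 4 to 20.

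Whether the replicate numbers pair the samples of untreated and S1D4 cells is not settled. Their same-numbered libraries correlated at 0.033 to 0.311 in their deviations from the group mean (3 of 4 best with their own number). Same-numbered libraries of other pairs of groups correlated at -0.106 to 0.108. The replicate block moved no other count by over 1.5 times. Depth limits the rare isoforms, of which COX6A2, COX7B2 and COX8C were not tested in SK-N-AS, nor also COX6B2 (2 to 11 counts) and COX7A1 (0 to 12 counts) in GIMEN.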
